A study of Gasterosteus aculeatus with 31 samples.

Results

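Among the open-chromatin peaks of juvenile threespine stickleback brains, a small set is wider than the window that nearly all others share. A peak was taken as wide where its stop minus its start exceeded 400, and only linkage groups groupI to groupXXI without groupXIX, the sex chromosome, were used. This gave 968 wide peaks among the 89261 peaks of those 20 linkage groups, or 1.08%, and the other 88293 all measured exactly 400. The whole table held 102149 peaks. A further 43 wide peaks on groupXIX and 94 on scaffolds were not members.

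The peaks come from ATAC-seq, which uses the Tn5 transposase to insert sequencing adapters into accessible DNA. The fish (Gasterosteus aculeatus) were offspring of wild-caught fathers from Putah Creek, bred in a half-sib design and sampled at 6 to 8 months, before sexual maturity. Their fathers reared 16 of them (father-reared, Day 10 in the labels), and the other 15 were reared by hand with no father present (orphaned, Day 0), with 15 males and 16 females in all. Every fish had met a model of a sculpin, a fish that preys on stickleback, in an open arena before its brain was taken, so all groups share that exposure. Each library came from 1 side of a brain, left or right, with all its cell types mixed, so a change in open chromatin and a change in cell makeup cannot be told apart. The sides were not balanced: right sides were more frequent among orphaned than father-reared fish, and among males than females. Fish whose identifiers begin with the same number were read as 1 family, an inference that gave 16 families, of which 15 held a brother and a sister.

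Accessible DNA in brain marks mainly promoters and enhancers, the stretches where nucleosomes have been displaced and regulatory proteins can bind. Promoters tend to be open in most cells, and enhancers more often in particular cell types. Broad stretches of open chromatin, or several open sites side by side, are known from genes with dense regulation. A peak's width in a count table, however, also depends on how windows were set around peak summits. In this species males alone guard and fan the eggs and tend the fry.

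Positions below are those of the deposited table. Its genome build, not given in the sources used here, could not be matched to a genome, so no sequence is shown and no gene, promoter or enhancer is assigned. Total counts per library ran from 2857578 to 10540612. Library by library, the median count was 30 to 110 at wide peaks and 20 to 73 at all peaks, so single wide peaks were measured with more counts than most. Of the 968 wide peaks, 935 had at least 10 counts in every library (96.6%, against 87.4% of 400-wide peaks). A count of 0 in any library was met at 4 wide peaks (0.413%, against 0.795% of 400-wide peaks). The filter on low counts removed 6 wide peaks (0.620%, against 0.894% of 400-wide peaks) and left 962 for testing.

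The widths were not spread evenly. The narrowest wide peak spanned 560 and the widest 1173, with a median of 758 and the middle 50% between 724 and 782. No wide peak lay between 400 and 560. Widths of 560 to 799 made up 953 of the 968, and these became more frequent towards the upper end: 448 of them exceeded 760 and 9 were under 600. Only 15 were wider, 1 at 935 and 14 from 1010 upwards. A span below 800 is what a pair of overlapping 400-wide windows would cover, and a span of up to 1200 what a row of 3 would cover, but how the authors set the widths, not given in the sources used here, was not tested.

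No peak in the table overlapped its neighbour. Widths could therefore be set beside the spacing of separate 400-wide peaks, measured from start to start. Spacings of 400 to 440 between neighbouring 400-wide peaks occurred 667 times, those of 440 to 480 occurred 868 times, and from 600 to 1000 there were on average 1316 pairs for each step of 40. The excess width of wide peaks, width minus 400, continued that series downwards, with 448 peaks between 360 and 400, 299 between 320 and 360, 134 between 280 and 320 and 48 between 240 and 280. The count fell at each step from 600 down to 120 with no gap at 400.

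**Figure D1:**
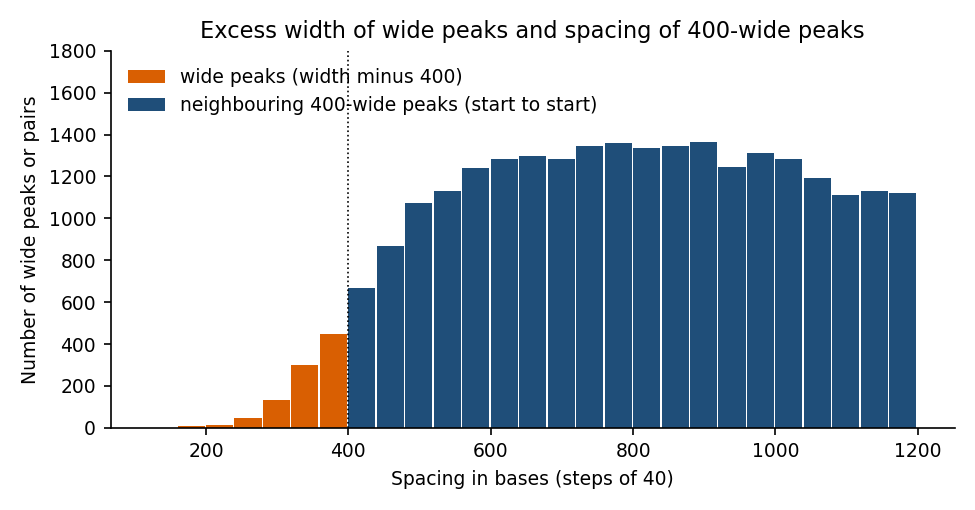
The number of wide peaks by width minus 400 (orange, 953 peaks up to a width of 799) and of neighbouring 400-wide peaks by start-to-start spacing (blue), in steps of 40 bases; the dotted line stands at 400. The orange bars continue the fall of the blue ones, from 667 pairs just above 400 to 448 wide peaks just below it.

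The narrowest members lay at groupXVII 10456550 to 10457110, with a width of 560 and a mean of 8.67 CPM (counts scaled to library size in units of 1e6, after TMM scaling in edgeR), and at groupXV 6724428 to 6724990, with a width of 562 and 8.99 CPM. Over the 31 fish the groupXVII peak ranged from 5.39 to 11.3 CPM with a median of 8.30, and the groupXV peak from 5.40 to 12.1 with a median of 9.16. Just outside the threshold stood the 400-wide peaks with a median of 7.19 CPM.

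The widest member was groupVI 3166643 to 3167816, with a width of 1173, followed by groupXV 3571355 to 3572509 (1154), groupXX 7688976 to 7690126 (1150), groupXX 8976570 to 8977685 (1115) and groupVII 2704366 to 2705476 (1110). Their mean levels were 13.8, 15.9, 16.3, 16.4 and 21.2 CPM. All 5 had counts in every fish: the lowest library had 7.96 CPM at the groupVI peak and 18.1 at the groupVII peak, and the highest had 18.0 and 26.6. Per kb of width they stood at 11.76, 13.75, 14.2, 14.7 and 19.05 CPM, beside medians of 14.4 for wide and 17.9 for 400-wide peaks. The extra width thus went with extra counts, and per kb only the groupVII peak exceeded the 400-wide median.

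Wide peaks collected more counts than other peaks and fewer per base. The median wide peak had 10.8 CPM against 7.19 CPM for 400-wide peaks, a ratio of 1.51. Divided by length, the medians were 14.4 CPM per kb for wide and 17.9 CPM per kb for 400-wide peaks, a ratio of 0.803. Wide peaks made up 2.02% of peak bases on these linkage groups and held 1.34% to 1.48% of the counts, depending on the library. The ratio per kb was below 1 in each of the 31 libraries, from 0.767 to 0.820, with a mean of 0.794 ± 0.0134 (SD, n = 31). The libraries share one peak set, so they repeat the measurement of the same peaks.

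**Figure D2:**
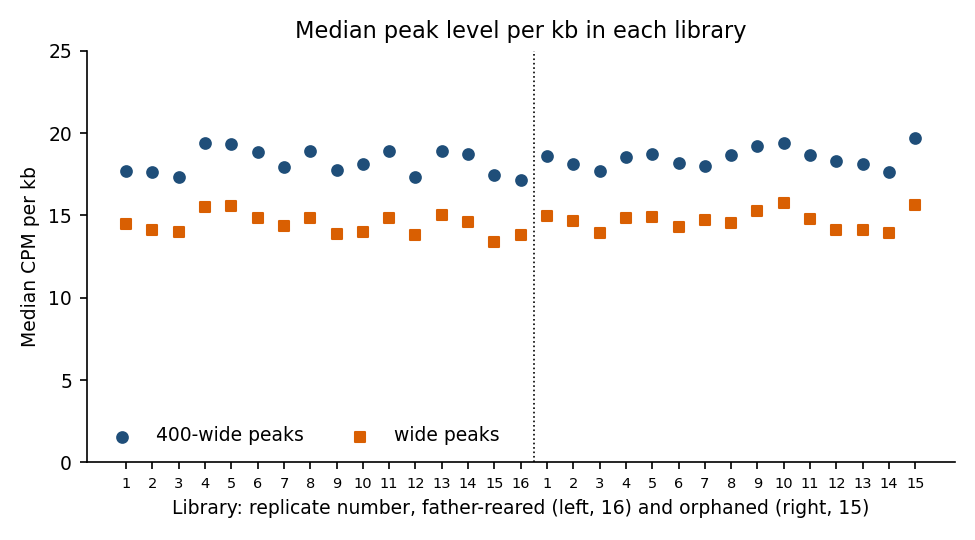
Median level in CPM per kb of the 968 wide peaks (orange squares) and the 88293 400-wide peaks (blue circles) in each of the 31 libraries, father-reared on the left of the dotted line and orphaned on the right. In every library the wide peaks sit lower, at 0.767 to 0.820 of the 400-wide median.

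The strongest open sites of these brains per kb were not wide. By CPM per kb, 3.31% of wide peaks fell in the strongest 10% of all peaks and none in the strongest 1%, while 24.6% fell in the weakest 10% and 80.5% below the median. By counts alone, 11.2% of wide and 9.99% of 400-wide peaks were in the strongest 10%. The strongest 1% held 10 wide peaks (1.03%, against 1.0% of 400-wide peaks), and 4.24% of wide peaks were below the median. The 5 highest per kb were groupIX 3234926 to 3235686 (92.1 CPM per kb), groupIV 2991570 to 2992342 (89.3), groupXI 240114 to 240884 (84.5), groupVII 726434 to 727173 (79.1) and groupIX 8549622 to 8550398 (73.45). The first of these ranked 1742 among all peaks of the 20 linkage groups per kb and 102 by counts. It had 48.4 CPM in the lowest library, 68.7 in the median one and 101 in the highest, so every fish was far above the median wide peak. The groupIV peak ran from 41.3 to 109 CPM, the groupXI peak from 47.9 to 98.65, the groupVII peak from 39.95 to 79.6 and the second groupIX peak from 40.95 to 74.3.

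At the other end, groupXIII 16786700 to 16787356, groupXII 1019179 to 1019911, groupXIV 9050297 to 9050992, groupXXI 11423403 to 11424126 and groupIX 19664133 to 19664852 had 1.55, 1.58, 2.11, 2.13 and 2.16 CPM per kb. The first 4 of them did not pass the filter on low counts. At the groupXIII peak 3 libraries had 0 counts and the highest had 11, so nothing finer than its low level can be read there.

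Among wide peaks, width itself said little about strength per kb, while wider ones held more counts. Across the 968 wide peaks, width and CPM rose together with a Spearman rho of 0.338, and width and CPM per kb had a rho of 0.0456. Both are across peaks, share libraries and are given as a description. Peaks up to 700 wide had a median of 14.1 CPM per kb (119 peaks), those of 700 to 750 a median of 14.5 (306 peaks), those of 750 to 780 a median of 14.5 (289 peaks), those of 780 to 800 a median of 14.3 (239 peaks) and the 15 widest a median of 13.99.

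Separate 400-wide peaks set close together were taken as a further comparison, chosen by their spacing alone. There were 4059 such windows whose neighbour, also 400 wide, started at most 500 away, forming 2063 pairs. Single windows of these pairs had a median of 12.6 CPM per kb, and a pair taken as 1 unit, with both counts over both lengths, 13.05 CPM per kb and 10.47 CPM in sum. Wide peaks stood at 1.10 times the close pairs per kb, with a range of 1.07 to 1.14 over the libraries. Their summed level of 10.8 CPM was also near that of a close pair. Measured against 400-wide peaks as a whole, close pairs lay at 0.691 to 0.738 in the libraries, below the 0.767 to 0.820 of wide peaks.

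The level per kb fell with crowding in both kinds of peak. Among 400-wide peaks it was 12.6 CPM per kb where the nearest other peak was within 100 bases, 16.85 at 250 to 500 bases and 19.7 at 1000 to 2000 bases. Among wide peaks the medians at the same distances were 11.75 (67 peaks), 14.0 (180 peaks) and 14.9 (193 peaks). Beyond 5000 bases they were 17.5 and 15.2 (71 wide peaks). A wide peak with no close neighbour was thus still below a 400-wide peak at the same distance.

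**Figure D3:**
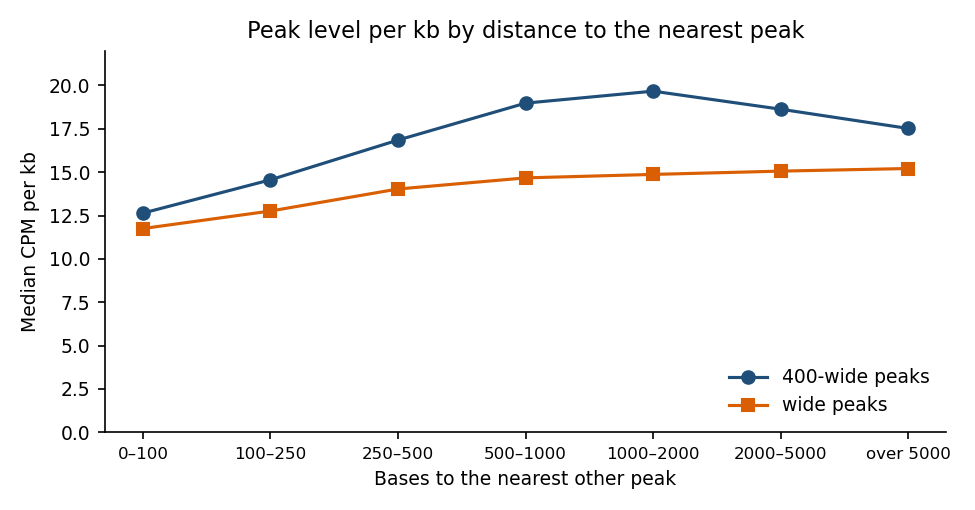
Median CPM per kb of wide (orange squares) and 400-wide peaks (blue circles) by the bases to the nearest other peak. Both rise with distance at first, the 400-wide peaks from 12.6 to 19.7 and the wide peaks from 11.75 to 14.9 at 1000 to 2000 bases, and the wide peaks are lower at each distance.

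Wide peaks lay all along the genome. Every linkage group held some, from 30 on groupXXI to 78 on groupIV. Per Mb up to the last peak, the density ran from 1.84 on groupXIII to 3.76 on groupV. As a share of peaks, groupV had the most, 1.46% (46 of 3140, 95% exact Clopper-Pearson interval 1.07% to 1.95%), and groupXIII the fewest, 0.819% (37 of 4518, interval 0.577% to 1.13%). The intervals of all 20 linkage groups contained the mean share of 1.08%. On groupXIX the share was 0.979% and on scaffolds 1.11%. The intervals of these shares of peaks, here and for the positions below, cover counting error only.

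Each linkage group was also divided into 10 equal stretches from first to last peak. The share of wide peaks was 1.28% (interval 1.06% to 1.54%) in stretch 5 and 0.891% (0.707% to 1.11%) in stretch 3. The first and last stretches, at the chromosome ends, had 1.09% and 1.05%. The intervals of neighbouring stretches overlapped.

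Wide peaks more often had a very close neighbour, and at larger distances their surroundings were close to those of others. Another peak lay within 1 kb of 55.9% of wide peaks (interval 52.7% to 59.1%) and of 54.3% of 400-wide peaks (54.0% to 54.6%). Within 500 bases the shares were 36.5% (33.4% to 39.6%) and 30.75% (30.4% to 31.05%), and these intervals did not overlap. Within 100 bases they were 6.92% and 4.67%. Median distances to the nearest peak were 836 and 884 bases. A median of 6 other peaks started within 10000 bases of either kind, and 53 within 100 kb. Another wide peak lay within 10000 bases of 60 wide peaks (6.20%), and a wide peak lay that near to 6.68% of 400-wide peaks. Within 1000 bases it was 6 wide peaks (0.620%) against 0.804%. The median distance to the next wide peak was 127100 bases.

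The spread from fish to fish differed with the level. The coefficient of variation (CV, SD over mean) of CPM within the 4 care-by-sex groups had a median of 0.176 in wide and 0.205 in 400-wide peaks. Since CV falls with counts, peaks were also compared within 10 equal classes of mean CPM, where the ratio of wide to 400-wide medians was 0.971. In the 4 groups it was 0.946 and 0.935 in father-reared females and males, and 1.02 and 0.978 in orphaned females and males. The difference from 1 is thus within the spread between groups, and with no library scaling factors the ratio was 1.05. In class 8 by CPM, which held 401 of the 962 tested wide peaks, the median CV was 0.180 in both kinds, and in class 9, with 337 of them, it was 0.160 against 0.178. In class 10 (106 wide peaks) it was 0.174 against 0.189. At lower counts, where few wide peaks lay, the wide median was the higher one except in class 5 (2 peaks), at 0.197 against 0.188 in class 7 (69 peaks), 0.212 against 0.197 in class 6 (14 peaks) and 0.353 against 0.261 in class 1 (24 peaks).

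A few wide peaks were far more variable than the rest. A CV above 0.5 was seen at 9 of the 968 (0.930%, against 0.627% of 400-wide peaks with at least 1 CPM) and above 1 at 2 of them (0.207%, against 0.0387%). The most variable was groupXI 4373588 to 4374371, with a CV of 1.76. Its level ran from 0 through a median of 0.940 to 123 CPM, with nothing between 1.84 and 15.15 CPM. The 11 fish above that gap were 6 father-reared and 5 orphaned, 6 males and 5 females. Of the 6 males, 5 had 15.15 to 32.0 CPM and the other 98.6, while the 5 females had 66.5 to 123 CPM. Over all fish the log2 difference, male minus female, was -1.20 (SE 0.63, adjusted p = 0.88 by edgeR), and that for care, father-reared minus orphaned, was 0.58 (SE 0.63, adjusted p = 0.82). In the 4 libraries with 0 counts, the limit that such a count allows, at 3 counts, lay at 0.521 to 0.735 CPM.

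Brother and sister were alike at this groupXI peak in some families and not in others. Father-reared replicates 11 and 12, a brother and a sister, had 98.6 and 105.7 CPM, and orphaned replicates 8 and 9 had 32.0 and 123 CPM. Father-reared replicates 7 and 8 had 22.6 and 66.5 CPM, the third pair with both fish high. In 5 pairs the fish were split, as in father-reared replicate 15 with 116.1 CPM beside the brother with 0.459, and in orphaned replicate 13 with 83.6 beside the brother with 0.198. In the other 7 pairs both were at most 1.84 CPM. A dividing line of 10 CPM, chosen after the values were seen, gave these counts.

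The next peak along, groupXI 4374647 to 4375047, 276 bases away and named here because the pattern turns on it, followed the same fish. It had 15.65 CPM in orphaned replicate 9, 10.8 in father-reared replicate 11 and 8.39 in father-reared replicate 15. The highest value among the 20 fish low at the wide peak was 0.199 CPM, and the lowest among the 11 others 2.15 CPM. The peak on the other side, groupXI 4368829 to 4369229, lay 4359 bases away. It had counts, from 2 to 12, in every fish high at the wide peak except father-reared replicates 1 and 7. Such counts were too few to show how closely its level followed that of the wide peak. This neighbour had 2.89 CPM (12 counts) in orphaned replicate 9 and 1.22 in father-reared replicate 11. It had 0 in father-reared replicates 1 and 7, both high at the wide peak, where the limits at 3 counts were 0.71 and 1.08 CPM. Among the 20 low fish it had counts in orphaned replicate 6, at 0.521 CPM (3 counts), and none in the others.

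The second most variable was groupIX 14865395 to 14866167, with a CV of 1.46, a range of 0 (orphaned replicate 3, limit 0.591 CPM) to 21.8 CPM and a median of 1.69. One family stood out, with 10.8 CPM in orphaned replicate 14 and 21.8 in the sister, orphaned replicate 15. Orphaned replicate 10 had 9.38 CPM while the sister had 0.802, and father-reared replicates 3 and 4 had 6.56 and 3.89 CPM. At groupXII 17834341 to 17835080 the CV was 0.766, with a lowest level of 0.398, a median of 2.92 and a highest of 12.0 CPM. The groupXII 1019179 peak, named above among the weakest, had a CV of 0.746 at 0 to 18 counts per library. With 2 to 22 counts per library, groupIX 18921744 to 18922445 had a CV of 0.718 and 0.394 to 5.79 CPM. Counts at both were low, and CV rises as counts fall. At the groupIX 18921744 peak orphaned replicates 10 and 11 had 3.89 and 3.74 CPM, and orphaned replicate 15, with the highest value, had a brother at 1.85.

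**Figure D4:**
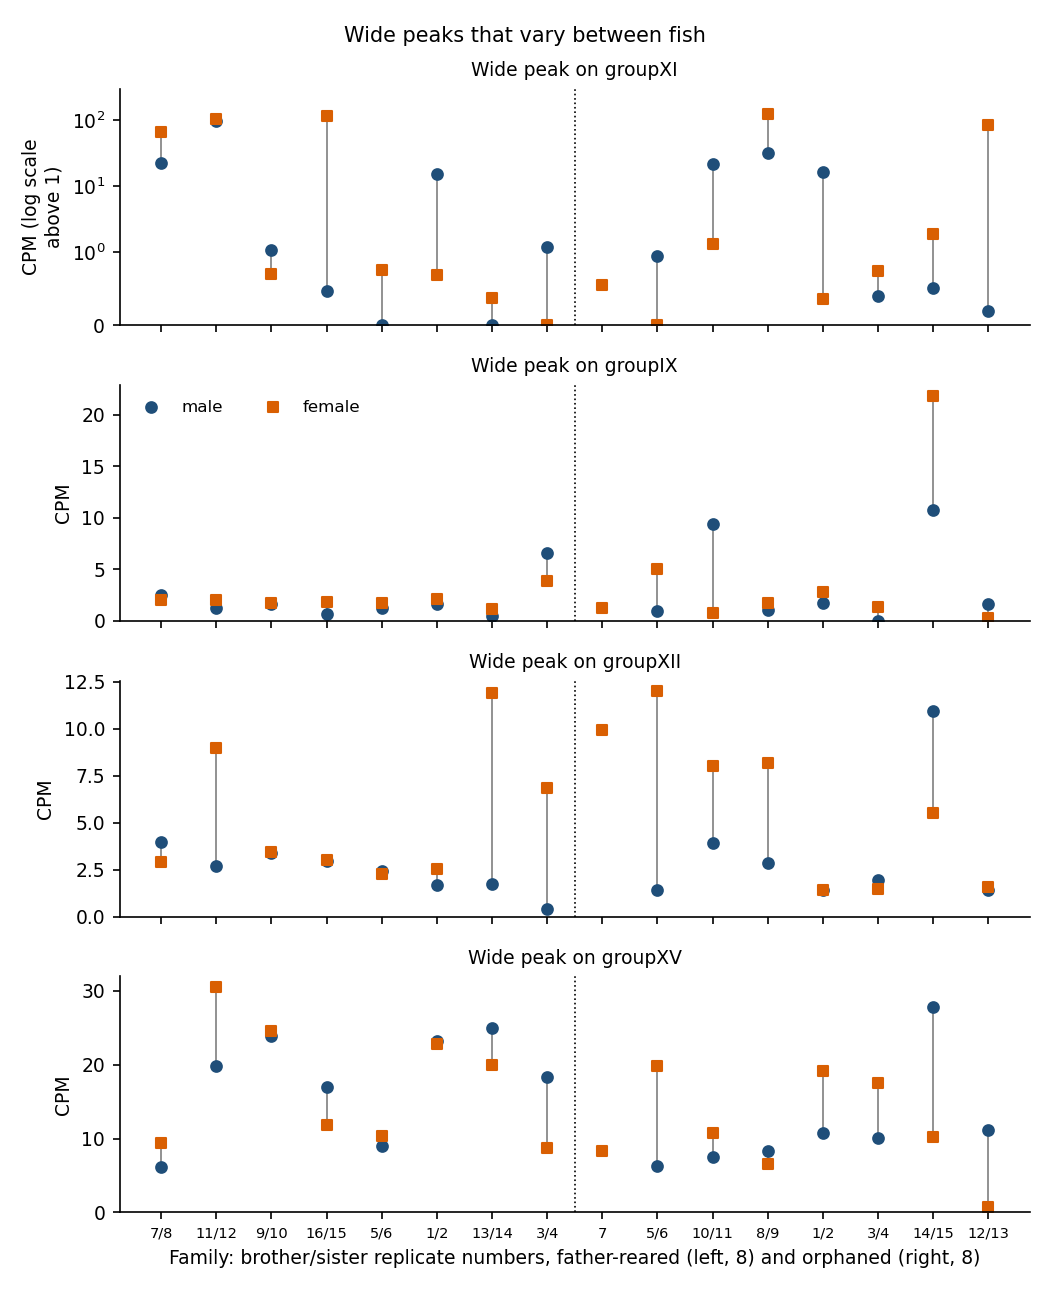
CPM per fish at the wide peaks of groupXI (4373588), groupIX (14865395), groupXII (17834341) and groupXV (3025019), brothers as blue circles and sisters as orange squares joined by a grey line, with father-reared families left of the dotted line; the groupXI panel has a log axis above 1 CPM. At groupXI 11 fish lie between 15.15 and 123 CPM and the others at or below 1.84.

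Family likeness was measured as the correlation across peaks of a brother's and a sister's deviations from their care-by-sex group means. In the wide peaks it averaged 0.131 over 15 pairs (SD 0.152) and was positive in 12, with a range of -0.186 to 0.371. In 400-wide peaks of the same CPM classes it averaged 0.0977 (SD 0.135) and was positive in 10 of 15. The 400-wide value of a pair is an average of correlations within classes, weighted by the number of wide peaks. That of the wide peaks is a single correlation over all classes, so the measures are not fully alike. For brothers and sisters of other families (105 pairs within a care group), the means were -0.0184 in wide and -0.0137 in 400-wide peaks. Deviations from a group mean cancel within the group, so these means follow largely from those of the family pairs. They are no separate baseline. All are correlations across peaks, which share libraries and depth, and are given without a test. Brother and sister also had neighbouring library numbers in nearly all families, so likeness by family and by library order cannot be told apart.

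The pair-by-pair difference between wide and 400-wide peaks averaged 0.0333 with an SD of 0.138, above 0 in 9 of 15 pairs. It was thus much smaller than its spread between families, and with Spearman's correlation it was -0.0115. The largest excess in wide peaks was that of father-reared replicates 7 and 8, at 0.236 against -0.0299. These fish are also both high at the groupXI peak. The reverse was seen in orphaned replicates 1 and 2, at -0.0377 against 0.142. Without the 7 tested wide peaks whose CV exceeded 0.5, the mean in wide peaks was 0.0744. Without such peaks it was 0.0472 in 400-wide peaks pooled over the classes. That pooled value is not like the average within classes given above, so the 2 do not show how far variable peaks raised likeness in 400-wide peaks. With no CPM classes and such peaks kept, the wide minus 400-wide difference was 0.0693.

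**Figure D5:**
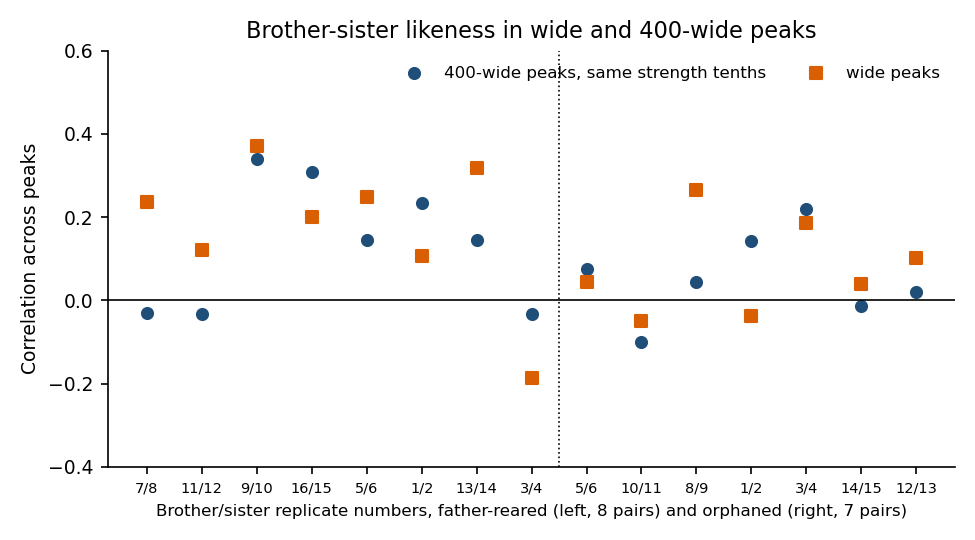
Correlation across peaks of brother and sister deviations for 15 pairs in wide peaks (orange squares) and in 400-wide peaks of the same CPM classes (blue circles), father-reared pairs left of the dotted line. The blue values are averages within classes, and the orange ones are correlations over all classes. Wide peaks have the higher value in 9 of 15 pairs, and both kinds range from below 0 to above 0.3.

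Covariation between neighbouring peaks was also measured. Over the 31 fish, a wide peak and a peak within 250 bases had a median correlation of 0.114 (181 pairs), and 2 such 400-wide peaks 0.111 (6527 pairs). At 2000 to 5000 bases the medians were 0.0473 (443 pairs) and 0.0476 (21441 pairs). The medians were lower at 2000 to 5000 bases than within 250 bases in both kinds. They fell no further at 5000 to 10000 bases, at 0.0533 (250 pairs) and 0.0569 (9879 pairs). Single pairs differed widely, with the middle 50% of the 181 pairs from -0.0419 to 0.305. These are correlations over fish that share libraries, and the difference between the kinds was not tested.

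The design asks whether care by the father left a trace in brain chromatin, and no wide peak passed the test of care. By edgeR's quasi-likelihood test over all 100808 peaks tested, 0 of 962 wide peaks had an adjusted p (Benjamini-Hochberg) under 0.05, beside a background of 0% over all peaks. The lowest adjusted p was 0.69. At an unadjusted p under 0.05 there were 68 wide peaks, or 7.07%, against 7.24% of all peaks and 7.12% of 400-wide peaks, of which father-reared fish were higher at 27 and lower at 41 (3042 and 3190 among the 400-wide peaks). DESeq2 called 0 wide peaks and had 73 at an unadjusted p under 0.05, against 7.47% of all peaks. Fish of a family shared their father and their care, which the test does not model, so its errors may be too small. Any parent shared between families, as a half-sib design allows, is not modelled either. Nor is the side of the brain, which was not balanced over care. With side as a covariate 0 wide peaks were called, and 84 had an unadjusted p under 0.05 (edgeR). The share of all peaks in that fit is not reported here.

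Sizes were small. The median log2 difference, father-reared minus orphaned, was -0.0071 over wide peaks and -0.00073 over 400-wide peaks. From the lowest 5% to the highest 5% of wide peaks it ran from -0.19 to 0.16. The 95% interval of the difference had a median half-width of 0.18 on the log2 scale and stayed within 2-fold for 99.7% of wide peaks. The share of counts in wide peaks was 1.40% ± 0.0439 in father-reared fish (SD, n = 16) and 1.42% ± 0.0416 in orphaned fish (SD, n = 15), and the ranges of 1.34% to 1.48% and 1.34% to 1.48% overlapped throughout.

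The care difference ran with strength, in wide peaks as in others. In 10 equal classes of CPM per kb, the 254 wide peaks of class 1, the weakest, had a median log2 difference of -0.06 and 400-wide peaks there -0.05. In class 10 the medians were 0.12 (31 wide peaks) and 0.13. Between them the wide peaks stood higher, as in class 5 with 0.03 (42 peaks) against -0.03. With classes of CPM per peak they stood lower, as in class 8 with -0.04 (401 peaks) against 0.03. Only classes 4 and 5, with 3 and 2 wide peaks, went the other way. In most classes, which of the kinds of peak had the higher median thus turned on whether length was divided out. The strongest 10% of peaks held 23.6% to 36.1% of the counts, depending on the library, and the part of this spread in the care difference was not tested. Over the 31 libraries, the share of counts in wide peaks fell as that of the strongest 10% rose (Pearson r = -0.858). Whether this bears on the shares in the care groups was not tested.

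Of the 8 wide peaks with the lowest unadjusted p for care, none passed (edgeR adjusted p = 0.69 for each). At groupVIII 15229376 to 15230088 father-reared fish had 5.30 CPM at the lowest, 7.80 at the median and 9.78 at the highest, and orphaned fish 7.75, 9.37 and 14.4. The groups overlapped between 7.75 and 9.78 CPM, and the means were 7.68 ± 1.28 (SD, n = 16) and 9.61 ± 1.86 (n = 15), a log2 difference of -0.30 (SE 0.09). At groupVI 5878845 to 5879642 father-reared fish ran from 5.97 through 8.20 to 16.4 CPM and orphaned fish from 7.95 through 10.8 to 17.6. That log2 difference was -0.37 (SE 0.12), with most father-reared fish below the orphaned median. The peaks at groupV 8460106 to 8460905 and groupXVIII 15478158 to 15478909 had lower values in father-reared fish too, by log2 differences of -0.29 and -0.29 (SE 0.09 each).

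Higher values in father-reared fish were seen at groupXVII 5649608 to 5650335, with 6.82, 10.9 and 16.0 CPM at the lowest, median and highest father-reared fish and 6.46, 8.93 and 11.7 in orphaned fish. The log2 difference was 0.32 (SE 0.10). At groupI 6125753 to 6126464 it was 0.25 (SE 0.08) and at groupXX 389908 to 390682 it was 0.27 (SE 0.09). The largest was at groupXV 3025019 to 3025768, at 17.5 ± 7.39 CPM in father-reared (SD, n = 16) and 11.7 ± 6.75 CPM in orphaned fish (n = 15), or 0.56 in log2 units (SE 0.20, adjusted p = 0.69 by edgeR). Father-reared fish ran from 6.10 to 30.5 CPM and orphaned fish from 0.682 to 27.8, so the groups overlapped over most of their range.

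Brothers and sisters were close at this groupXV peak in several families. Father-reared replicates 9 and 10 had 23.9 and 24.6 CPM, replicates 1 and 2 had 23.2 and 22.8, and replicates 5 and 6 had 8.95 and 10.3. In other families they were apart, as in father-reared replicates 3 and 4 with 18.3 and 8.71 CPM, orphaned replicates 14 and 15 with 27.8 and 10.3, and orphaned replicates 12 and 13 with 11.1 and 0.682. These families were picked after their values were seen.

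Males and females were compared next, since the sexes differ widely on the sex chromosome and these peaks lie off it. No wide peak passed: 0 of 962, against 2.32% of all peaks tested, groupXIX included, and 0.134% (117 of 87504) of 400-wide peaks on the same linkage groups. At an unadjusted p under 0.05 there were 23 wide peaks, or 2.39%, against 3.50% of those 400-wide peaks and 6.06% of all peaks, and 5 of the 23 were higher and 18 lower in males. Among the 400-wide peaks 1544 were higher and 1522 lower, and over all peaks 2066 and 4039. The difference between these splits was not tested. DESeq2 also called 0 wide peaks, against 2.36% of all peaks, and its lowest adjusted p among the wide peaks was 0.078. It had 27 of 962 wide peaks at an unadjusted p under 0.05, against 6.07% of all peaks. Both of these DESeq2 shares of all peaks include groupXIX, so they are no like background for the wide peaks. The median log2 difference, male minus female, was 0.00 over wide peaks and 0.01 over 400-wide peaks, and for 99.2% of wide peaks the 95% interval lay within 1.5-fold.

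The lowest p for sex belonged to the groupXII 17834341 peak, also among the most variable. Males had 0.398, 2.42 and 10.95 CPM at the lowest, median and highest fish, and females 1.42, 4.49 and 12.0. The ranges overlapped almost wholly, and the means were 2.87 ± 2.45 CPM in males (SD, n = 15) and 5.62 ± 3.78 CPM in females (SD, n = 16), or -0.94 in log2 units (SE 0.28, adjusted p = 0.056 by edgeR). The brother was lower in 11 of 15 families. In father-reared replicates 13 and 14 the values were 1.72 and 11.9 CPM, and in orphaned replicates 5 and 6 they were 1.41 and 12.0, while orphaned replicates 14 and 15 had the brother higher, at 10.95 against 5.53 CPM. With each family's brother and sister compared as a fixed block the peak passed (log2 difference -0.88, edgeR adjusted p = 0.0031), and without orphaned replicate 14 it passed with a log2 difference of -1.33 (edgeR adjusted p = 0.0004). These p values were adjusted over all peaks tested, groupXIX included, and the unadjusted p of the main edgeR test was 0.0013. With groupXIX left out of the fit, and so of the adjustment, the edgeR adjusted p of this peak was 0.64.

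The other 7 of the 8 lowest were smaller and did not pass. At groupVII 17381460 to 17382205 males had 6.82, 10.7 and 12.8 CPM at the lowest, median and highest fish and females 7.58, 12.65 and 15.4, or -0.29 in log2 units (SE 0.09, adjusted p = 0.11 by edgeR), with the brother lower in 14 of 15 families. This peak passed without father-reared replicate 8 (adjusted p = 0.03). At groupIII 6423265 to 6423911 males had 4.66 ± 0.786 CPM (SD, n = 15) and females 5.74 ± 0.727 CPM (n = 16), with the brother lower in 13 of 15 families and an edgeR adjusted p of 0.27. At groupI 18054904 to 18055675, groupXV 15681296 to 15682080, groupIV 3064881 to 3065623 and groupVI 10058657 to 10059339 males had the lower mean, by log2 differences of -0.27, -0.25, -0.26 and -0.20 (SE 0.10, 0.09, 0.10 and 0.09). The 1 peak of the 8 with the higher mean in males was groupXXI 5365321 to 5366044, with a log2 difference of 0.26 (SE 0.09) and the brother higher in 14 of 15 families. The adjusted p values of these ran from 0.25 to 0.59. All 8 peaks were picked by their p for sex in these same fish, so the counts of families are no separate support.

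Whether the care difference depended on sex was tested directly. No wide peak passed (0 of 962, background 0%; lowest edgeR adjusted p = 1), with 30 at an unadjusted p under 0.05, or 3.12% against 3.49% of all peaks and 3.52% of 400-wide peaks. DESeq2 called 0 as well. The intervals were wider here, within 1.5-fold for 76.8% of wide peaks and within 2-fold for 97.9%.

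The lowest p was at groupXVIII 11878254 to 11879018. Father-reared males had a median of 10.6 CPM (6.17 to 14.7, n = 8) and orphaned males 13.4 (8.24 to 16.7, n = 7). Father-reared females had 12.5 (10.9 to 15.7, n = 8) and orphaned females 10.2 (8.42 to 11.5, n = 8), so the order of the care groups was opposite in the sexes while their ranges overlapped. The interaction, the care difference of males minus that of females, was -0.58 in log2 units (SE 0.20, adjusted p = 1 by edgeR). At the groupXV 15681296 peak named for sex it was -0.51 (SE 0.17), with father-reared males at a median of 9.50 CPM and father-reared females at 15.2. Orphaned males and females there had medians of 13.04 and 12.2 CPM, so the lower median in males was that of the father-reared fish, though the interaction did not pass (adjusted p = 1 by edgeR). At groupXVIII 6536099 to 6536834 it was 0.55 (SE 0.19).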

How the data were processed

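ATAC-seq was run on 31 libraries, 1 per fish. The authors deposited a single table with raw read counts for every peak in every library. Tools listed in the submitters' processing notes, without roles or settings, are DiffBind 3.14.0, MACS2 2.2.5, Picard 2.10.1, SAMtools 1.9, Bowtie2 2.3.5.1 and FastQC 0.11.8. The genome build, the treatment of duplicates, any Tn5 shift and the rule for peak widths were not stated in the sources used here. Libraries held 2857578 to 10540612 counts. The labels name no molecular identifiers, and PCR reads may repeat a molecule, so the limits given for counts of 0 cover counting error only. Intervals of shares of peaks are Clopper-Pearson intervals over peaks, and those of log2 differences come from the fit and include the spread between fish.

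Low peaks were removed with filterByExpr in edgeR (10 counts as the minimum, 4 care-by-sex groups) and libraries scaled by TMM. All remaining peaks were tested with quasi-likelihood F tests (edgeR 4.0.16, R 4.3.3), for care and sex in one model and for their interaction in a model of 4 group means, with Benjamini-Hochberg adjustment over 100808 peaks. Length is stop minus start plus 1. Log2 CPM used a prior count of 2. The edgeR fits for care and sex were checked on counts simulated with known fold changes. The simulated fish were independent and their spread followed the fitted trend, so the check does not cover shared families. It does not cover the interaction either. Alternatives used DESeq2 1.42.0, limma 3.58.1 (family as a random replicate block), other scaling, filters, thresholds, covariates and widths, and each library left out. Brother and sister were paired by the leading number of the fish identifier.

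Peaks named are the 5 widest, 5 strongest and 5 weakest per kb, 5 most variable with at least 1 CPM, 2 narrowest, and the lowest p for care (8), sex (8) and interaction (3). The neighbours of the groupXI peak on both sides and the dividing line of 10 CPM were chosen after values were seen. The members, and what was measured on them, were chosen with earlier results of these data known.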

Additional observations from a re-analysis of the deposited data

How the results depend on the processing

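For care and for the interaction, 0 wide peaks were called under each of 43 alternatives, family as a random replicate block (limma) included. For sex the count was 0 in the main test and 1 at a threshold of 0.10, with the stretch of library numbers as a covariate and under a fixed replicate block of families, where it was the groupXII 17834341 peak each time (adjusted p = 0.056, 0.04 and 0.0031). Leaving out 1 library gave 0 to 2 calls: this peak without father-reared replicates 2, 6, 8 or 15 or orphaned replicates 2, 4, 13 or 14, and also groupVII 17381460 without father-reared replicate 8. All of these calls for sex came from fits and adjustments that included groupXIX. The ratio of levels was 1.51 per peak in place of 0.803 per kb, and stayed within 1 SD under the other alternatives. The share with a neighbour, 55.9% within 1 kb, was 36.5% within 500 bases and 92.6% within 5 kb. The CV ratio of 0.971 was 0.859 without strength classes and 1.05 without scaling factors. The difference in family likeness ran from 0.0167 to 0.0486 with each family left out. A width above 500 kept the same peaks, and one above 750, added after seeing the data, moved no result. The causes of these changes were not tested. The filter on low counts removed 6 wide peaks, and with no filter all 968 were tested and 0 called.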
